A study of Mus musculus with 28 samples.

Results

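Hair shaft keratins are the hard keratins from which the hair fibre is built. The genes examined were Krt31, Krt32, Krt33a, Krt33b, Krt34, Krt35, Krt36, Krt82, Krt85 and Krt86, taken by symbol from the table of expression levels that the authors deposited, in FPKM (fragments scaled by transcript length and by library). Of these 10 names, 9 had a row of their own among the 23015 rows of the table. Krt85 was listed only in a joined row together with Krt81, Krt83 and the predicted gene 5430421N21Rik. The value of that joined row cannot be divided among its genes, so it was followed beside the 9 members and counted with none of them.

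A keratin filament is assembled from pairs of an acidic (type I) and a basic (type II) keratin. In the growing follicle, matrix cells around the dermal papilla divide, leave the matrix upwards and fill with hair keratins and keratin-associated proteins as they form the cortex and cuticle of the shaft. From human hair, KRT35 and its type II partner KRT85 are known as the first hair keratins switched on, in the upper matrix and precortex, with KRT31 and the KRT33 pair following in the cortex.

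RNA was sequenced from 14 populations sorted from back skin at postnatal day 5, with 2 libraries each (28 in all). All mice had a mixed background of FVB/N, C57BI/6J and CD1. The K14-H2BGFP line, which expresses a green nuclear protein from the keratin 14 promoter of basal keratinocytes and also carried Lef1-RFP, gave 8 populations. TAC cells (labelled matrix progenitors expressing Shh) were dimly green and Lef1-RFP-positive, Neg was a mixture of negative cells, Mx (matrix) was all dimly green cells and ORS (outer root sheath) the brightly green cells of the dermis. Epi was the green fraction of the epidermis. Mc (melanocytes) carried both Lef1-RFP and CD117, DF (dermal fibroblasts) were Lef1-RFP-positive but negative for CD117 and integrin alpha 9, and DP (dermal papilla) was Lef1-RFP-positive with high integrin alpha 9. The papilla was divided further, on the same Lef1-RFP and integrin gate, in a Sox2-GFP line (G/AA-DP, guard and awl/auchene, positive, and ZZ-DP, zigzag, negative) and in a Crabp1-GFP line (G-DP negative, AA/ZZ-DP positive). HF-SC (bulge stem cell precursors, Sox9-GFP-positive) and HF-ORS (the Sox9-GFP-negative rest of the sheath) were bright for K14-RFP and integrin alpha 6 in a K14-RFP Sox9-GFP line, whose labels give no Lef1-RFP. The TAC gate lies inside the Mx gate, so Mx can hold TAC cells. Whether the 2 libraries of a population came from separate animals, or from pools, is not stated in the labels. The p-values therefore measure only the spread between libraries of a population, pooled for each gene over all 14 populations. In the fit reported, the SE of a gene is thus the same in every comparison (0.74 for Krt35). It is not the spread of the 2 compared populations alone.

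Totals ranged from 285981 to 515224 FPKM per library and 10951 to 12497 genes reached 1 FPKM. These totals are not sequencing depths, and the depth is unknown. Replicates correlated across genes at 0.933 to 0.979. An exact 0 may be a failed estimate, since the ubiquitous RNA Malat1 was listed at 0 in 10 of 28 libraries, and such values are given below as listed at 0. The labelled identity of TAC was checked with Shh, a ligand made by matrix cells. Shh was 70.5 and 55.0 FPKM in TAC and 51.5 and 44.2 FPKM in Mx, and the difference did not pass the test (adjusted p = 0.9999, limma).

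The type I members lie together on the minus strand of chromosome 11 (GENCODE vM21 annotation of GRCm38), and each has 7 exons. Krt33a lies at chr11:100011195-100016212, Krt33b at chr11:100023634-100029868, Krt34 at chr11:100037347-100041554 and Krt31 at chr11:100046646-100050551. Krt32 at chr11:100080848-100088226, Krt35 at chr11:100092193-100096241 and Krt36 at chr11:100102007-100105626 follow. The type II members, of 9 exons each, lie on chromosome 15, Krt86 at chr15:101473478-101479986 on the plus strand and Krt82 at chr15:101541214-101550667 on the minus strand. The position of Krt85 was not used here.

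Several of these genes are close copies, and this bears on how far their FPKM values can be told apart. The coding sequences of Krt33a and Krt33b were 93.3% identical and those of Krt31 and Krt33b 90.9%, whereas Krt31 and Krt35 were 70.5% identical. Of all 50-base stretches of a transcript, the share found also in another gene was 28.1% in Krt31, 21.9% in Krt33a, 24.2% in Krt33b, 33.1% in Krt34 and 43.3% in Krt86, most of the last with Krt81 (35.6%). It was 3.95% in Krt35, 0.432% in Krt36 and 0 in Krt32 and Krt82. Values of Krt31, Krt33a, Krt33b, Krt34 and Krt86 may therefore include reads of their copies, while those of Krt35, Krt36, Krt32 and Krt82 rest mostly on sequence of their own. The longest coding run that Krt31, Krt33a, Krt33b and Krt34 share without a difference is 89 bases long. It spans coding positions 171 to 259 of each and lies in Krt31 at chr11:100050224-100050312, minus strand. It is shown because a read inside it fits all 4 genes equally.
Shared run: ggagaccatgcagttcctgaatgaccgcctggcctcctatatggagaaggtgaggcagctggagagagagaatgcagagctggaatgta

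Promoters of 6 members (Krt31, Krt32, Krt33b, Krt34, Krt36 and Krt82) were present in the RefSeq table of GRCm38.p6. The 250 bases before the RefSeq start are printed for 4 of them, 3 type I genes with alike promoters and the type II cuticle gene Krt82, because the members' levels are compared below. Capitals mark 3 motifs, searched on both strands and chosen after these promoters had been read: CTTTGA, the letters bound by LEF1-type factors, TTTATG, and TATAAA, the TATA box. They do not overlap in the sequences shown.
Krt31 promoter: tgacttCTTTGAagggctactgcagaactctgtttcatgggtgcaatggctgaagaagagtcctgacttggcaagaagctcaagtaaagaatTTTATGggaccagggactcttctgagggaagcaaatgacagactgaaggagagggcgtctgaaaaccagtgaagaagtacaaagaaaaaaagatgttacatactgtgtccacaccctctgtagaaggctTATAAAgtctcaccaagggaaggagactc
Krt34 promoter: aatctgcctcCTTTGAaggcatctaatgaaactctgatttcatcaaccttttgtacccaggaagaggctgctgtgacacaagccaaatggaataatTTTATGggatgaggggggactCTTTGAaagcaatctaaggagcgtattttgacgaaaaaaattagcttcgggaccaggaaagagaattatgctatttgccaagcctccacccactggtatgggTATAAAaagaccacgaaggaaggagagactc
Krt32 promoter: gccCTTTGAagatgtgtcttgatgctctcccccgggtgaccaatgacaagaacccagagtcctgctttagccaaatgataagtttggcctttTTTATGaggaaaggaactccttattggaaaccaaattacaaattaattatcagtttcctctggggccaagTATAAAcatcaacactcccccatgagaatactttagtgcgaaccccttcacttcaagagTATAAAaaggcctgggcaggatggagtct
Krt82 promoter: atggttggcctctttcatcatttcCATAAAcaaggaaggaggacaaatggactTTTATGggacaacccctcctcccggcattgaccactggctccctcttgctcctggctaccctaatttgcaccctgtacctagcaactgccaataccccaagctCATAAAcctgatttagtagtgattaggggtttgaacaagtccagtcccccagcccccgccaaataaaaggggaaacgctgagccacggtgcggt
These lie at chr11:100050552-100050801 (Krt31), chr11:100041555-100041804 (Krt34), chr11:100088270-100088519 (Krt32) and chr15:101550660-101550909 (Krt82), all on the minus strand. The RefSeq start equals the GENCODE start given above except in Krt32, where it lies 43 bases further upstream, and Krt82, where it lies 8 bases downstream, so that the last 8 printed bases of Krt82 fall inside the GENCODE gene. Positions below count back from the RefSeq start. Krt31, Krt33b, Krt34 and Krt32 each held all 3 motifs on the coding strand, in the same order where the first copy of each is taken. Krt34 held a further CTTTGA at -133, after its TTTATG. The first CTTTGA started at position -244 in Krt31, -247 in Krt33b, -240 in Krt34 and -247 in Krt32. TTTATG started at -158, -159, -154 and -158 in the same genes. TATAAA lay at -29 in Krt31, -47 in Krt33b and -31 in Krt34, and Krt32 had a copy at -88 and another at -29. Krt82 held TTTATG at -197 and, on the other strand, 2 further copies, written CATAAA in the sequence above. None of the 3 exact strings was found in this window of Krt36, although it holds TATATAAG, a run close to TATAAA. Other forms of the motifs were not searched. Among 32851 RefSeq promoters cut to the same length, 13.8% held CTTTGA, 10.8% TTTATG and 12.4% TATAAA on either strand, and 0.393% held all 3. As the motifs were chosen after these promoters had been read, these shares are no test of the members' matches. A match describes letters only and shows no binding.

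Krt35 was the most abundant member. It reached 339 and 263 FPKM in TAC, 72.8 and 30.2 FPKM in Neg, and 102 and 132 FPKM in Mx. In DF it was 140.0 and 24.3 FPKM. TAC libraries were thus above all others, and the DF libraries were far apart, 1 above and 1 below both Mx libraries. In the remaining keratinocyte sorts Krt35 was low, at 1.84 and 4.80 FPKM in ORS, 5.55 and 4.62 FPKM in HF-SC, and 5.19 and 1.69 FPKM in HF-ORS, and it was listed at 0 in both Epi libraries. Papilla sorts had 4.93 and 2.17 FPKM (DP), 15.3 and 1.85 FPKM (G/AA-DP), 5.61 and 1.99 FPKM (ZZ-DP), 17.6 and 28.6 FPKM (G-DP), and 10.5 and 7.998 FPKM (AA/ZZ-DP). Mc had 0.997 and 1.52 FPKM. By mean level the order was TAC (301.0 ± 53.4 FPKM, SD, n = 2), Mx (117 ± 21.2), DF (82.2 ± 81.8), Neg (51.5 ± 30.2) and G-DP (23.1 ± 7.78). TAC and Mx did not overlap, although their difference did not pass the test given below. The ranges of Mx and DF overlapped, as did those of DF and Neg, while Neg and G-DP did not. From AA/ZZ-DP (9.23 ± 1.74 FPKM) down to ORS (3.32 ± 2.09 FPKM), libraries of 7 populations formed a low range in which G/AA-DP, with 1 library at 15.3 FPKM, reached highest.

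The joined row that contains Krt85, the type II partner of Krt35, ran alongside. It stood at 189.9 and 157 FPKM in TAC, 39.9 and 13.5 FPKM in Neg, 45.3 and 69.4 FPKM in Mx, and 70.7 and 25.4 FPKM in DF. It was also listed at 0 in both Epi libraries. Its means over the 14 populations correlated with those of Krt35 at r = 0.952 on the log2(FPKM + 1) scale, a description over populations that share lines and processing. Krt35 was 1.78 and 1.68 times the joined row in TAC, 1.83 and 2.23 times in Neg, and 2.26 and 1.91 times in Mx. It was below the joined row in 15 of the 26 libraries where the row was not listed at 0, most of them with low levels of both. The lowest ratio was in ORS replicate 2 (0.150), where the joined row was at 32.0 FPKM, and HF-ORS replicate 2 (0.235), DP replicate 2 (0.299), Mc replicate 1 (0.318) and ORS replicate 1 (0.343) followed.

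**Figure D1:**
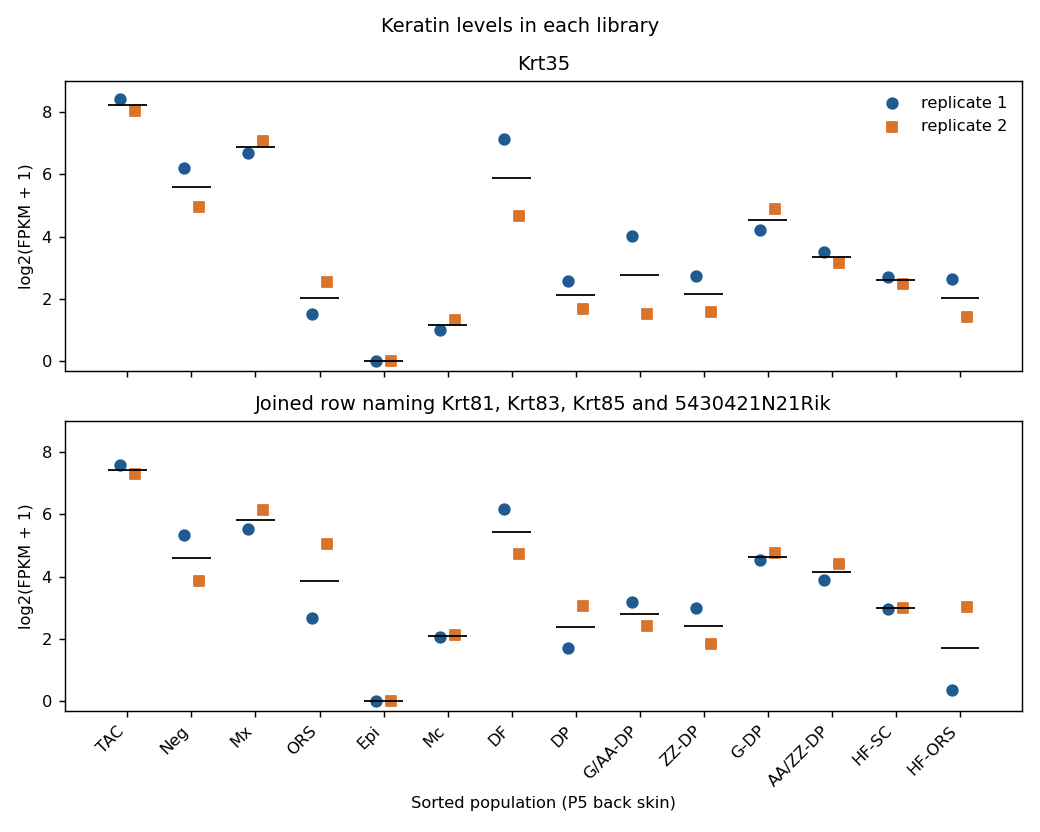
Level of Krt35 (top) and of the joined row naming Krt81, Krt83 and Krt85 (bottom) in each library, as log2(FPKM + 1), by sorted population; circles are replicate 1, squares replicate 2 and lines the mean of both. TAC is highest in both panels, both rows are listed at 0 in Epi, and the joined row in ORS has 1 library at 5.36 and 1 at 32.0 FPKM.

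Of the cortex keratins, Krt31, an acidic keratin of the human hair cortex, was 14.2 and 26.3 FPKM in TAC, 1.73 and 1.12 FPKM in Neg, and 1.39 and 6.52 FPKM in Mx. ORS had 0.0815 and 5.21 FPKM, and DF 12.7 and 3.37 FPKM. Both TAC libraries were above every library of the other 13 populations. It was listed at 0 in 5 of 28 libraries, among them both of Epi. Krt33a was 11.5 and 19.2 FPKM in TAC, 2.14 and 6.92 FPKM in Mx, 0.217 and 8.89 FPKM in ORS, and 5.59 and 8.39 FPKM in DF. Its near copy Krt33b stayed lower, at 3.71 and 4.34 FPKM in TAC, 0.334 and 2.14 FPKM in Mx, and 0.0789 and 4.07 FPKM in ORS. For both of these genes ORS replicate 2 was above both Mx libraries, and for Krt33b it lay within the TAC range. Krt34 was barely listed, with a median of 0.0722 FPKM, 13 of 28 libraries at 0 and a highest value of 2.75 FPKM in G-DP.

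The other members were lower than Krt31 in TAC. Krt36, a type I keratin, had 5.13 and 3.77 FPKM in TAC, 0.157 and 0.757 FPKM in Mx, and 0 and 0.0767 FPKM in ORS. In DF it had 2.32 and 1.06 FPKM, and it was listed at 0 in 13 of 28 libraries. Krt86, a type II keratin of the human cortex, had 2.16 and 2.42 FPKM in TAC and at most 3.05 FPKM anywhere. Krt82, a type II keratin of the human hair cuticle, had 5.66 and 6.64 FPKM in TAC, 1.01 and 1.95 FPKM in Mx, and 0 and 1.30 FPKM in ORS. TAC libraries were above all others for Krt82, although G-DP replicate 1 (5.13 FPKM) and AA/ZZ-DP replicate 2 (5.11 FPKM) came close while their replicates were at 0.443 and 0.418 FPKM.

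Krt32, an acidic keratin of the human hair cuticle, had another distribution. It was 1.49 and 5.03 FPKM in TAC, 1.26 and 3.60 FPKM in Mx, 1.85 and 1.45 FPKM in ORS, and 1.77 and 3.20 FPKM in Epi. The ranges of these 4 populations overlapped. It was the only member above 1 FPKM in both Epi libraries, where 6 of the other 8 were listed at 0 in both. HF-ORS had 3.13 and 1.03 FPKM. Across the 14 population means it correlated with Krt35 at r = 0.307 and with the joined row at 0.269, whereas Krt31 correlated with Krt33a at 0.952 and with Krt35 at 0.867. These are descriptions over 14 means, and low values such as those of Krt32 and Krt34 limit them. Krt31 and Krt33a are close copies that may share reads, unlike Krt32, and the part of shared reads in their correlation was not tested.

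**Figure D2:**
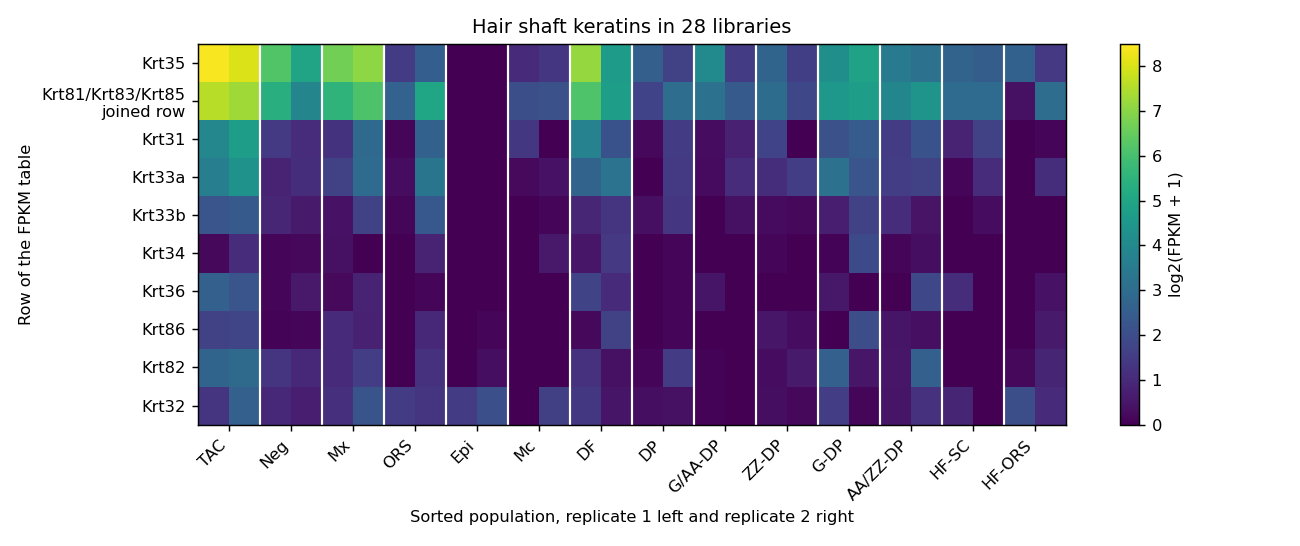
Level of the 9 members and of the joined row in all 28 libraries, as log2(FPKM + 1) on a colour scale; columns are populations with replicate 1 left and replicate 2 right. Krt35 and the joined row are bright in TAC, Mx, Neg and DF, Krt31, Krt33a and Krt33b are brightest in TAC, Krt34 and Krt86 have their brightest library in G-DP (2.75 and 3.05 FPKM), and Krt32 is the only member above 1 FPKM in both Epi libraries.

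TAC against Mx compares the Lef1-RFP-positive cells with all dimly green matrix cells. A gene was called where its adjusted p (limma on log2(FPKM + 1), Benjamini-Hochberg over all 15052 genes tested) was under 0.05 and its log2 change at least 1 in size. All 9 members had at least 1 FPKM in at least 2 libraries and were tested. Krt36 alone was called, higher in TAC by 1.92 ± 0.46 on the log2 scale (adjusted p = 0.0395), so 1 of 9 members was called, where 1.04% of all genes were called higher. All 9 had a positive log2 change, 5 of 9 had an unadjusted p under 0.05, and their median was 1.35, against 0 over all genes. Krt31 had 2.26 ± 0.77 (adjusted p = 0.228), Krt33a 1.67 ± 0.72 (0.424), Krt82 1.55 ± 0.63 (0.375) and Krt35 1.35 ± 0.74 (0.621). The joined row had 1.60 ± 0.77 (0.521). Krt36 was no longer called when any 1 of the 4 TAC and Mx libraries was left out (adjusted p 0.116 to 0.374), nor with pseudocounts of 0.1 or 5, without the filter or with quantile normalization. Among markers of other cells, 6 of 7 fibroblast and 4 of 10 papilla markers were also higher in TAC, for example the collagen gene Col1a1 at 52.5 and 27.7 FPKM against 1.51 and 1.99 FPKM in Mx. Summed fibroblast markers were 517 and 459 FPKM in TAC and 493 and 420 FPKM in Mx, where Dcn, a matrix proteoglycan, made up most of the sum (482 and 407 FPKM). The 8 melanocyte markers summed to 285 and 198 FPKM in TAC and 40.6 and 51.0 FPKM in Mx. The part of these cells in the keratin differences was not tested. In such bulk sorts, a smaller number of expressing cells and less RNA per cell cannot be told apart.

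Mx against ORS separates matrix from outer root sheath. Krt35 was called, with a mean of 117 ± 21.2 FPKM in Mx and 3.32 ± 2.09 FPKM in ORS and a log2 change of 4.86 ± 0.74 (adjusted p = 0.000459). It was the 1 of 9 members called, where 1.2% of all genes were called higher, and it kept the call under all 13 alternatives (adjusted p up to 0.0145). The joined row had 1.98 ± 0.77 (0.220). The members' median was 0.46, against 0.02 over all genes, and Krt33b (-0.19) and Krt34 (-0.22) had negative values. Of 6 matrix markers (Shh, Msx2, Lef1, Hoxc13, Foxn1 and Dlx3), 4 were also higher in Mx, and 3 of 8 basal keratinocyte markers were lower.

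TAC against ORS had the most called members of the 10 comparisons. Krt35 was higher in TAC by 6.21 ± 0.74 on the log2 scale (adjusted p = 1.01e-05), Krt36 by 2.38 ± 0.46 (0.00143), Krt31 by 2.97 ± 0.77 (0.0160) and Krt82 by 2.23 ± 0.63 (0.0303). Thus 4 of 9 members were called, where 4.01% of all genes were called higher, and the median of the 9 was 2.20, against 0.02 over all genes. The joined row was higher by 3.58 ± 0.77 (0.00376), while Krt33a had 2.20 ± 0.72 (0.0669), Krt86 1.23 ± 0.49 (0.157) and Krt33b 1.10 ± 0.53 (0.288). Krt35 and Krt36 kept their calls whichever TAC or ORS library was left out. Krt31 lost its call without TAC replicate 2 (adjusted p = 0.149) or ORS replicate 1 (0.369), Krt82 without TAC replicate 1 (0.112), TAC replicate 2 (0.150) or ORS replicate 1 (0.346), and the joined row without ORS replicate 1 (0.129). Without ORS replicate 2, Krt33a was called with a log2 change of 3.71 (0.00218) and Krt33b with 2.22 (0.0113), so that 6 of 9 were called. The calls of Krt31 and Krt82 were also lost with a pseudocount of 0.1 (0.107 and 0.0739), that of Krt82 without the filter (0.0561) and that of Krt31 with the same mouse line alone (0.0528). With a pseudocount of 5, Krt36 (0.90) and Krt82 (0.99) fell short of the log2 change of 1, and Krt33a was called (1.23, 0.0215). Of markers, 6 of 6 for matrix, 6 of 7 for fibroblasts, 5 of 10 for papilla and 4 of 8 for melanocytes were higher in TAC, and 4 of 8 for basal keratinocytes and 2 of 4 for pericytes were lower. The matrix markers include Lef1, whose reporter was part of the TAC gate, and Shh, which the TAC label names. Those calls were not independent of how TAC was sorted and labelled. Fibroblast markers summed to 517 and 459 FPKM in TAC and 105 and 64.2 FPKM in ORS, and melanocyte markers to 285 and 198 FPKM in TAC and 30.3 and 25.3 FPKM in ORS. Basal keratinocyte markers summed to 1546 and 1198 FPKM in TAC and 4390.1 and 4402 FPKM in ORS. Their part in the keratin differences was not tested.

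The ORS libraries were far apart in these genes. In replicate 2, Krt33a (8.89 FPKM), Krt31 (5.21 FPKM) and Krt33b (4.07 FPKM) together with Krt34 summed to 19.0 FPKM, against 4.80 FPKM for Krt35, a ratio of Krt35 to the 4 of 0.253. The sum was 0.377 FPKM in replicate 1, and in DF replicate 1 it was 19.6 FPKM. In TAC that ratio was 11.5 and 5.17, in Mx 24.5 and 8.496, and in DF 7.15 and 1.64. It was under 1 in 4 further libraries with sums of at most 5.28 FPKM, DP replicate 2 (0.411), Mc replicate 1 (0.570), G/AA-DP replicate 2 (0.877) and ZZ-DP replicate 2 (0.967). Krtap8-1, a glycine- and tyrosine-rich keratin-associated protein gene, was likewise 3.70 and 47.3 FPKM in the ORS libraries, with replicate 2 higher. The 11 other hair shaft genes counted below summed to 24.4 and 42.8 FPKM in ORS replicates 1 and 2. The 6 matrix markers summed to 167 and 160.1 FPKM in the same libraries. The cause of the difference between the ORS libraries was not tested. Over the 9 members, Krt35 made up 88.5% and 79.3% of the summed FPKM in TAC, 93.1% and 85.4% in Mx, 84.9% and 56.4% in DF, and 45.3% and 17.4% in ORS. The lower share in replicate 2 was not particular to ORS. It was seen in every population but Epi, where Krt35 was listed at 0, and G-DP (47.2% and 63.0%). In DP, for example, the share was 86.4% and 22.3%. The cause was not tested.

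**Figure D3:**
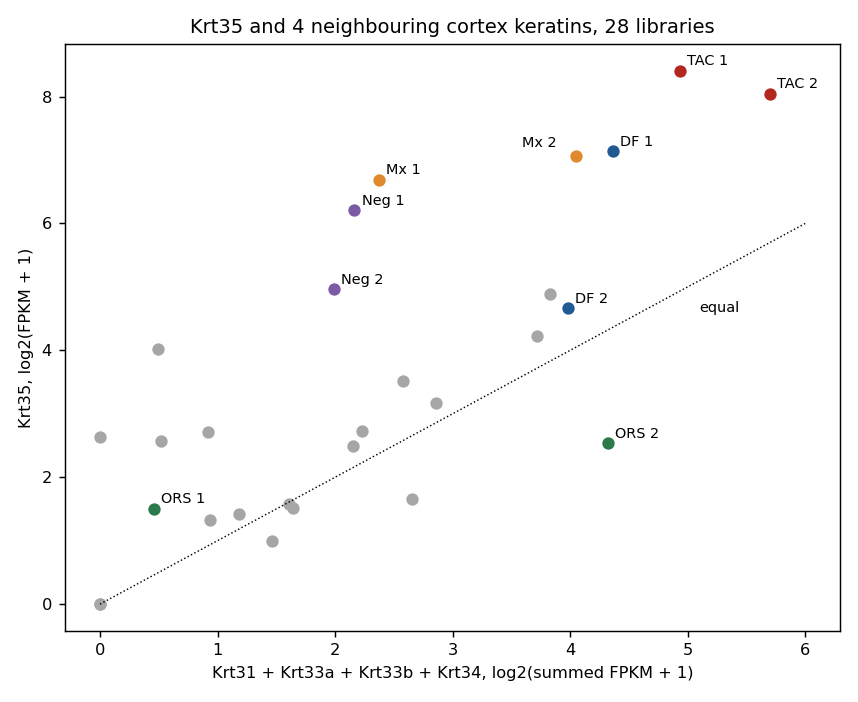
Krt35 (vertical axis) against the summed FPKM of Krt31, Krt33a, Krt33b and Krt34 (horizontal axis), both as log2(FPKM + 1), with 1 point per library; coloured points are labelled by population and replicate, grey points are the other 9 populations and the dotted line marks equal levels. TAC and Mx libraries lie well above the line, and ORS replicate 2 lies below it, with 4.80 FPKM of Krt35 against 19.0 FPKM of the 4. Grey points below it are DP replicate 2, Mc replicate 1, G/AA-DP replicate 2 and ZZ-DP replicate 2, whose sums are at most 5.28 FPKM.

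Mx against Epi asks where the interfollicular epidermis stands. Krt31, Krt33a, Krt33b, Krt34, Krt35 and Krt36 were listed at 0 in both Epi libraries, so no fold change or median is given. Krt35 (adjusted p = 1.34e-06) and Krt33a (0.0393) were called, 2 of 9 members where 5.12% of all genes were called higher, and so was the joined row (1.7e-05). Krt33a lost the call without Mx replicate 2 (0.377), Epi replicate 1 (0.157) or Epi replicate 2 (0.148), with a pseudocount of 5 (0.0987), without the filter (0.0739) and with the same mouse line alone (0.0836). The difference of Krt32 did not pass the test, at 2.43 ± 1.66 FPKM in Mx and 2.49 ± 1.01 FPKM in Epi (log2 change -0.08 ± 0.57, adjusted p = 1). All 6 matrix markers, 3 of 7 fibroblast, 2 of 8 melanocyte and 2 of 5 endothelial markers were higher in Mx, and 6 of 8 basal and 4 of 6 tested suprabasal markers were lower. Basal keratinocyte markers summed to 1726 and 1391 FPKM in Mx and 25805 and 17674 FPKM in Epi, and fibroblast markers to 493 and 420 FPKM in Mx and 9.32 and 6.42 FPKM in Epi. Their part was not tested.

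DF against DP sets the Lef1-RFP-positive sort without integrin alpha 9 beside the papilla sort. Krt35 was higher in DF by 3.79 ± 0.74 (adjusted p = 0.00237), 1 of 9 members where 4.25% of all genes were called higher, and the joined row by 3.07 ± 0.77 (0.0164). Krt33a (2.25 ± 0.72, 0.0677), Krt31 (2.09 ± 0.77, 0.121) and Krt36 (1.32 ± 0.46, 0.0939) did not pass. The median of the 9 was 0.89, against -0.01 over all genes. Without DF replicate 1 the change of Krt35 was 2.55 (0.0923) and that of the joined row 2.35 (0.227), and neither was called, and the joined row was also lost without DP replicate 1 (0.208) and with a pseudocount of 0.1 (0.0541). The DF libraries also differed in keratinocyte markers. Shh was 50.1 and 7.99 FPKM, Krt14, a basal keratin, 46.3 and 11.0 FPKM, and the 6 matrix markers 507 and 155 FPKM in DF replicates 1 and 2, with the higher value in the library that also had more Krt35. Krt31, Krt32, Krt36 and Krt82 were likewise higher in DF replicate 1. The other members were higher in DF replicate 2. They were Krt33a (5.59 and 8.39 FPKM), Krt33b (0.881 and 1.41 FPKM), Krt34 (0.418 and 1.66 FPKM) and Krt86 (0.125 and 2.20 FPKM). In DF, 6 of 8 basal keratinocyte, 4 of 6 matrix, 8 of 8 melanocyte and 3 of 4 pericyte markers were higher than in DP. Basal keratinocyte markers summed to 556 and 179.9 FPKM in DF and 56.1 and 53.8 FPKM in DP, and none of these or of the matrix markers was listed at 0 in either sort. Their part in the keratin values of DF was not tested.

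TAC against DF had 2 of 9 members called, Krt35 (2.33 ± 0.74, adjusted p = 0.0316) and Krt82 (2.04 ± 0.63, 0.0291), where 6.03% of all genes were called higher. Krt82 was 5.66 and 6.64 FPKM in TAC and 1.31 and 0.306 FPKM in DF, without overlap. The joined row had 2.00 ± 0.77 (0.0764), and the median of the 9 was 1.05, against 0.08 over all genes. Both calls were lost without TAC replicate 1 (0.161 for Krt35 and 0.0960 for Krt82), TAC replicate 2 (0.0869 and 0.125) or DF replicate 2, where Krt35 changed by 1.09 (0.498) and Krt82 by 1.63 (0.257). Both were also lost with a pseudocount of 0.1 or without the filter, and Krt35 with quantile normalization (0.0619). The count of members called was nevertheless 3 with quantile normalization, and it was 3 with the same mouse line alone. With a pseudocount of 5, Krt82 (0.95) fell short of the log2 change of 1. Without DF replicate 1 the joined row was called (2.72, 0.0451). Of markers, 6 of 8 for basal keratinocytes and 5 of 6 for matrix were higher in TAC, and 6 of 7 for fibroblasts, 8 of 10 for papilla, 4 of 8 for melanocytes and 4 of 4 for pericytes were lower. Basal keratinocyte markers summed to 1546 and 1198 FPKM in TAC and 556 and 179.9 FPKM in DF, and fibroblast markers to 517 and 459 FPKM in TAC and 2654 and 5876 FPKM in DF. Their part was not tested.

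**Figure D4:**
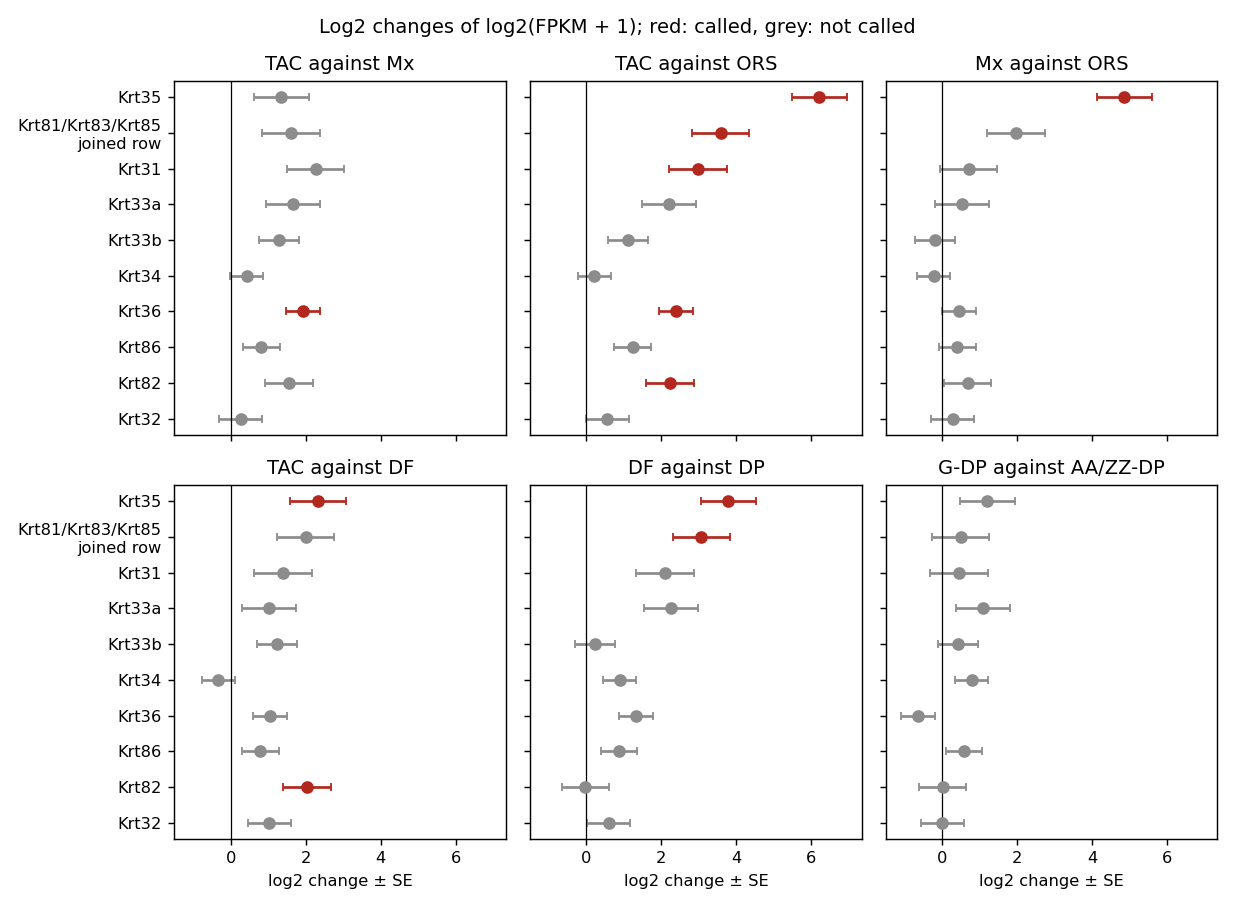
Log2 change ± SE (horizontal axis) of the 9 members and the joined row (vertical axis) in 6 comparisons; red points were called and grey points were not. Krt35 is called against ORS, in DF against DP and in TAC against DF, and Krt36 is the only member called in TAC against Mx.

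No member was called in the other 4 comparisons, by limma, and none of the 9 had an unadjusted p under 0.05 in any of them. In Neg against Mx, where 5.17% of all genes were called in either direction, all 9 log2 changes were negative (-1.33 to -0.05, median -0.77, against -0.05 over all genes). Krt35 was 72.8 and 30.2 FPKM in Neg and 102 and 132 FPKM in Mx, without overlap, and its change of -1.29 had an adjusted p of 0.493. Although labelled as negative cells, the Neg sort thus held hair keratin RNA. Markers higher in Neg were 7 of 8 for melanocytes, 4 of 7 for fibroblasts, 5 of 5 for endothelium, 3 of 4 for pericytes, 3 of 4 for leukocytes and 1 of 10 for papilla. Melanocyte markers summed to 702 and 1019 FPKM in Neg and 40.6 and 51.0 FPKM in Mx, endothelial markers to 99.3 and 155 FPKM in Neg and 7.37 and 10.1 FPKM in Mx, and basal keratinocyte markers to 2056 and 1342 FPKM in Neg and 1726 and 1391 FPKM in Mx. Their part was not tested. In HF-SC against HF-ORS (4.4% called in either direction) the values ran between -1.10 for Krt32 and 1.18 for Krt31, with a median of 0.04 against 0. G/AA-DP against ZZ-DP (0.00664%, 1 gene) gave -0.66 to 0.62, with a median of -0.21 against -0.02. G-DP against AA/ZZ-DP (0.505%) gave -0.64 to 1.21, with a median of 0.45 against -0.06, and Krt34 was called without G-DP replicate 1 (1.70, adjusted p = 0.0430). In that comparison 5 of 8 melanocyte markers were higher in G-DP, summing to 1201 and 1232 FPKM in G-DP and 58.0 and 72.8 FPKM in AA/ZZ-DP. Their part was not tested.

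Other genes of the shaft programme were counted in TAC against ORS, where 4.01% of all genes were called higher. Of 11 other hair shaft genes, 10 were higher in TAC and none lower (median 3.32, against 0.02 over all genes), for example Dsg4, a desmosomal cadherin of the hair cortex, at 64.8 and 70.0 FPKM in TAC and 1.77 and 4.26 FPKM in ORS (4.16 ± 0.55, adjusted p = 3.77e-05). S100a3, a calcium-binding protein of the hair cuticle, was 142 and 177 FPKM in TAC and 9.08 and 12.5 FPKM in ORS. Padi3, which deiminates arginines of hair proteins, was 67.0 and 78.4 FPKM in TAC and 5.54 and 6.39 FPKM in ORS, and Prr9 was 31.1 and 35.2 FPKM in TAC and 2.07 and 1.84 FPKM in ORS. All 4 were called.

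Of 21 regulators of the shaft, 14 were higher in TAC than in ORS and 1 lower, with a median of 2.07, where 4.01% of all genes were called higher. These regulators include all 6 matrix markers counted above, so the lists are not separate. Hoxc13, a homeobox factor that activates hair keratin genes, was 295 and 262 FPKM in TAC and 38.0 and 48.5 FPKM in ORS (2.67 ± 0.41, adjusted p = 0.000187). Lef1, a mediator of Wnt signals whose reporter was part of the TAC gate, was 258 and 232 FPKM in TAC and 19.5 and 13.1 FPKM in ORS. Msx2, a homeobox factor of the matrix, was 265 and 266 FPKM in TAC and 30.8 and 31.0 FPKM in ORS. Called too were Shh (3.998 ± 0.67), the BMP ligand gene Bmp4 (3.84 ± 0.42), Trps1 (2.07 ± 0.37), Dlx3 (2.02 ± 0.53) and Foxn1, the nude gene (2.20 ± 0.52). Dlx3 lost its call without any 1 of the 4 TAC and ORS libraries, and Foxn1 without TAC replicate 1 (0.104) or ORS replicate 2 (0.139). Gata3, a factor of the inner root sheath (31.9 and 24.0 FPKM in TAC, 28.4 and 21.5 FPKM in ORS), and Cux1 (305 and 199.8 FPKM in TAC, 286 and 198 FPKM in ORS) were not called. In DF against DP, Hoxc13 (4.09 ± 0.41) and Dsg4 (3.72 ± 0.55) were higher in DF together with Krt35, with the higher Hoxc13 value, 119 against 35.1 FPKM, again in DF replicate 1.

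Of 29 tested keratin-associated protein genes (51 listed), 5 were higher in TAC than in ORS, a count that was 1 without TAC replicate 1, TAC replicate 2 or ORS replicate 1 and 3 without ORS replicate 2. Over all genes, 4.01% were called higher in TAC than in ORS. The proteins that keratin-associated protein genes encode crosslink hair keratin filaments. Krtap8-1 was 223 and 265 FPKM in TAC, 19.1 and 28.4 FPKM in Mx, and 3.70 and 47.3 FPKM in ORS, and was called against both Mx (3.33 ± 0.73, adjusted p = 0.0252) and ORS (4.02 ± 0.73). The call against Mx was lost without any 1 of the 4 libraries (0.116 to 0.220). Krtap10-10 was called against ORS (2.33 ± 0.61) only with all 4 libraries, and Krtap15 (adjusted p = 0.0559) and Krtap7-1 (0.0525) were not called. Both were called without ORS replicate 2 (log2 changes of 4.92 and 4.70, adjusted p = 0.0126 and 0.00731) and with a pseudocount of 5 (0.0299 and 0.0137). Near-identical copies in this family may share reads. Of the 6 other hair keratin genes listed, Krt39, Krt40 and Krt84 had rows, and only Krt39 was tested, at 2.47 and 1.77 FPKM in TAC and 0.429 and 0.631 FPKM in ORS (1.02 ± 0.26, adjusted p = 0.0134). Its call was lost without TAC replicate 1 (0.152), ORS replicate 1 (0.128) or ORS replicate 2 (0.0547).

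The inner root sheath keratins, which build the sheath around the shaft, had their highest values elsewhere. Krt25 was 366 and 294 FPKM in TAC, 838 and 834 FPKM in Mx, and 97.7 and 68.8 FPKM in ORS. Krt71 was 197 and 157 FPKM in TAC and 469 and 578 FPKM in Mx. The median of the 8 in TAC against Mx was -0.55, while that of the 9 shaft keratins was 1.35, and none of the 8 was called (Krt73 -0.57, Krt27 -0.82). The difference between these lists was not tested. In TAC against ORS, 3 of the 8 were higher (median 1.75), but none without TAC replicate 1 and 1 without ORS replicate 2.

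The genes whose levels followed the mean of the 9 members most closely over the 14 population means were Tgm6, a transglutaminase (r = 0.971), Hephl1, a ferroxidase-like protein (0.969), Padi3 (0.956), Krtap7-1 (0.945) and Dsg4 (0.940). Vat1l, Stra6, Fam26d, Ly6g6d and Kcnh1 followed (0.936 to 0.937), and all 10 were highest in TAC. Stra6, a membrane receptor for retinol-binding protein, averaged 129 FPKM there. Closest to Krt35 were Dsg4 (0.974), Stra6 (0.966) and Msx1as (0.950). Closest to Krt31 were Fam26d (0.954), Krt33a (0.952) and Gprc5d (0.944). Krt33a was closest to Krt86 (0.963), and Krt36 to Vat1l (0.950). Closest to Krt32 were Eif2b1 (0.936), a subunit of a translation initiation factor, Ttc27 (0.908) and Polr3g (0.907), of which the first and last were highest in Epi. These correlations were chosen as the highest of many over 14 means and describe likeness alone.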

How the data were processed

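Per the labels' protocols, RNA was kept at integrity scores of 8.8 or above, and 6 ng was reverse transcribed and amplified before library preparation. The authors deposited FPKM values of 28 libraries in 1 table. Alignment tools (TopHat2 2.0.3, Bowtie2), Cufflinks 2.1.1 and the build mm10 are credited to the submitters' processing notes. Annotation, filters and strand were not given in the sources used here, so overlapping antisense genes cannot be separated. Of 23235 rows, 220 identical copies were dropped. The 15052 genes reaching 1 FPKM in 2 or more libraries were fitted on log2(FPKM + 1), a scale that understates changes of low genes. The fit used limma 3.58.1 in R 4.3.3 over all libraries, with 1 mean per population and an empirical Bayes trend (14 residual and 5.72 prior degrees of freedom). P-values were two-sided and adjusted over all genes within each of 10 comparisons. In data simulated for TAC against Mx, 94.5% of 200 genes changed by a log2 value of 3 were recovered, with 8 false calls. The 9 members changed by less in that comparison (0.27 to 2.26), so this share is not a recovery rate for them.

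Members and gene lists were chosen with earlier results of these data known. Named genes were all members, the 10 genes most correlated with their mean and the 3 most correlated with each, of each companion list the 4 tested genes with the highest mean FPKM in any population, and Hoxc13, Lef1, Foxn1, Msx2, Dlx3, Gata3, Shh and Dsg4. Col1a1, Dcn and Krt14 were named after their values were seen. Likeness was limited to genes whose highest population averaged 5 FPKM or more. Alternatives were pseudocounts of 0.1 and 5, no filter, a 5 FPKM filter, quantile and upper-quartile scaling, no trend, a replicate block, libraries of the same mouse line alone, and each library left out. Sequence comparisons used GENCODE vM21 transcripts (50-base stretches) and RefSeq promoters, with Python 3.11.15. The depth is unknown, so no counting interval is given.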

Additional observations from a re-analysis of the deposited data

How the results depend on the processing

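With a pseudocount of 0.1 the count of members called was 0 in TAC against Mx (1 in the fit reported), 2 in TAC against ORS (4) and 0 in TAC against DF (2). With a pseudocount of 5 it was 1 in Mx against Epi (2) and 1 in TAC against DF, and TAC against Mx kept a count of 1 but by Krt31 in place of Krt36. Without a filter it was 0 in TAC against Mx, 1 in Mx against Epi and 0 in TAC against DF. A filter at 5 FPKM, which removes Krt36, and quantile normalization each gave 0 in TAC against Mx. With libraries of the same mouse line alone it was 1 in Mx against Epi and 2 in DF against DP (1). Leaving out single libraries gave 0 to 0 members in TAC against Mx, 2 to 6 in TAC against ORS, 1 to 2 in Mx against Epi, 0 to 1 in DF against DP, 0 to 2 in TAC against DF and 0 to 1 in G-DP against AA/ZZ-DP. The cause of these changes was not tested. No called value changed sign under any alternative run.

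The labels share replicate numbers without saying what they mark. Within each mouse line, deviations of same-numbered libraries correlated positively in every pair. Pairs across lines were not computed. The values were 0.0574 to 0.275 in 28 pairs of the K14-H2BGFP line (27 over 0.1) and 0.071 to 0.285 in the other lines. As not every pair was over 0.1, the number was kept as an alternative and not used in the fit reported. Whether the number marks an effect shared by libraries was not tested. The SE and p-values of the fit reported leave out any such effect. With the replicate number as a block, 2 members were called in DF against DP and 5 in TAC against ORS, with Krt33a added in both (adjusted p = 0.0166 and 0.0156), Krtap15 (0.0235) and Krtap7-1 (0.0255) were called in TAC against ORS, and over all genes 336 were called in TAC against Mx (191 without it) and 1125 in HF-SC against HF-ORS (662).

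Counts over all genes moved by more than 1.5 times in these cases. A pseudocount of 5 gave 668 in DF against DP (1007 reported), 1584 in TAC against DF (2574) and 407 in Neg against Mx (778), and a pseudocount of 0.1 gave 28 in G-DP against AA/ZZ-DP (76). The same mouse line alone gave 0 in HF-SC against HF-ORS, 2 in G-DP against AA/ZZ-DP and 2 in G/AA-DP against ZZ-DP (1), where no filter gave 4. Leaving out single libraries gave 51 to 85 in TAC against Mx, 193 to 409 in Mx against ORS (577), 710 to 867 in TAC against ORS (1238), 1047 to 1274 in Mx against Epi (1694), 539 to 1023 in DF against DP, 1188 to 2876 in TAC against DF, 390 to 646 in Neg against Mx, 316 to 757 in HF-SC against HF-ORS, 1 to 15 in G/AA-DP against ZZ-DP and 13 to 282 in G-DP against AA/ZZ-DP. With 2 libraries a population and unknown depth, values near 1 FPKM are the least certain.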
